A study of Homo sapiens with 6 samples.

Results

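The genes for the proteins of the cytosolic ribosome were followed in C4-2B, a human prostate cancer cell line of the LNCaP lineage that grows without androgen. Members were chosen by symbol alone, as RPL or RPS followed by a number and an optional A or X, together with RPLP0, RPLP1, RPLP2 and RPSA. The rule found 77 genes, 46 of the large subunit and 31 of the small subunit, and all 77 were listed in each of the 6 libraries. They were 77 of 17594 named genes in the SR2211 experiment, of 16253 in that with XY011 and of 22642 in that with ENZ. Each experiment set 1 treated library against 1 vehicle library of its own after 48 h, and all cells grew in medium with mostly charcoal-stripped serum, which is low in steroids. The treated cells received SR2211, a nuclear receptor inverse agonist, at 5 µM, XY011, a compound known here by its code name alone, at 5 µM, or enzalutamide (ENZ), a clinical antagonist of androgen signalling, at 20 µM. With 1 library per group there is no replicate spread and no p-value, so every difference below compares 2 libraries and not 2 conditions.

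Each ribosome carries 1 copy of nearly every ribosomal protein, and cells keep the supply of these proteins in step with each other and with ribosomal RNA. Their mRNAs are short, very abundant and mostly begin with a C followed by a run of C and T bases, the 5′ terminal oligopyrimidine (TOP) motif. Translation of TOP mRNAs is known to be controlled by the growth kinase mTORC1 through the RNA-binding protein LARP1, which also protects these mRNAs from decay. Prostate cancer cells, like other dividing cells, spend a large part of their RNA and protein synthesis on ribosomes.

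The libraries looked like the labelled line. All 9 luminal prostate markers examined were listed in every library, and they summed to 1120 RPKM with SR2211 and 2952 RPKM with its vehicle, to 1206 FPKM with XY011 and 2974 FPKM with its vehicle, and to 3172 FPKM with ENZ and 4969 FPKM with its vehicle. The luminal sum was thus lower in each treated library, and its part in the changes below was not tested. In each vehicle KLK3 was the highest of the 9. Not every marker was lower than with vehicle: 7 of the 9 were with SR2211, 8 with XY011 and 7 with ENZ, and the others were higher. Of 12 markers of other cell types, 6 or 7 were listed in an experiment, and none reached 10 in the SR2211 and XY011 experiments. In the ENZ experiment 1 of them did, COL1A1, at 34.8 FPKM with ENZ and 14.1 FPKM with vehicle. The mapped reads behind the SR2211 experiment were worked out from the values as 8.163 M with SR2211 and 8.2 M with vehicle. The median member there rested on at least 4726 reads with SR2211 and 4113 with vehicle, and the highest on at least 28560 with SR2211 and 23429 with vehicle. These are the smallest read numbers that match the values, so the true numbers can be larger. The depth of the other 2 experiments was not worked out, so counting intervals are given for the SR2211 experiment alone, and they cover counting error only.

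The starts of 12 members are shown: the 8 that were among the 5 largest increases with SR2211 or with XY011, and 4 that were among the 5 lowest changes with both. Each line gives 15 bases before the RefSeq start and 15 bases from it on, with the run of C and T bases that opens the mRNA in capitals. Sequences and positions are those of RefSeq on GRCh38.p14, read on the gene's own strand. The genes with large increases come first.
RPL12, chr9:127451392-127451421, minus strand: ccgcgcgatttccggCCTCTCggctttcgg
RPS29, chr14:49598696-49598725, minus strand: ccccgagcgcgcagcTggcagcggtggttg
RPS18, chr6:33272060-33272089, plus strand: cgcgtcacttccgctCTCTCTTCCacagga
RPL31, chr2:101002274-101002303, plus strand: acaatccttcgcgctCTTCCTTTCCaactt
RPL3, chr22:39319609-39319638, minus strand: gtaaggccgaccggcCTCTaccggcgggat
RPL13A, chr19:49487593-49487622, plus strand: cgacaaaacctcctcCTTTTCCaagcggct
RPS27, chr1:153990747-153990776, plus strand: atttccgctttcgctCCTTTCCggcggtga
RPS25, chr11:119018329-119018358, minus strand: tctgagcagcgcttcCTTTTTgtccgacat
The genes with the smallest or negative changes follow.
RPL35, chr9:124861943-124861972, minus strand: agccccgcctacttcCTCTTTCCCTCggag
RPS9, chr19:54200843-54200872, plus strand: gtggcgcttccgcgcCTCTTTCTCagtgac
RPS15, chr19:1438381-1438410, plus strand: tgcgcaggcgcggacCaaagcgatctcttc
RPS26, chr12:56041903-56041932, plus strand: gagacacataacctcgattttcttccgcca
A start with C and a run of 5 or more C or T bases was present in 6 of the 8 genes with large increases, where RPL3 (a run of 4) and RPS29 (a T before a purine) lacked it. It was present in 2 of the 4 genes with the lowest changes, RPL35 (11) and RPS9 (9), while RPS15 had a lone C before a purine and RPS26 began with G. Over all members such a start was found at a RefSeq start of 46 of the 62 members with an entry (74.2%), against 1358 of 27243 other genes (4.98%). RefSeq gives the start of a transcript model, so the start used in C4-2B cells may lie elsewhere.

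With SR2211, nearly all ribosomal protein mRNAs were slightly higher than with vehicle. Changes are given as log2((treated + 1)/(vehicle + 1)). In the SR2211 experiment 74 of 77 members were above 0 and 3 below, while 45.6% of all 12149 tested genes were higher by any amount. The median member was higher by 0.24, or 18.3%, where the median of all tested genes was -0.07. The members lay close together, from -0.12 to 0.53 with an SD of 0.11 across genes, where all genes had an SD of 0.66, and 66 of the 77 were between 0.1 and 0.4. Changes were small for a single gene. Only RPL12 reached 0.5, and 16.6% of all genes were higher and 21.4% lower by that much. No member reached 1 in either direction, against 5.10% of all genes higher and 5.75% lower. Centred on the median gene, 75 of 77 were above 0, and with both libraries rescaled to the same total 74 were, but when the values of both libraries were forced to the same distribution (quantile scaling) 52 were, with a median of 0.084.

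With XY011 nearly all ribosomal protein mRNAs were again higher than with vehicle, most of them by more. In this experiment 73 of 77 members were above 0 and 4 below, against 42.2% of all 12591 genes higher by any amount. The median was 0.38, or 30.4% higher, against a median of -0.14 for all genes. The highest was 0.76, and the SD across genes was 0.20, against an SD of 0.84 for all genes, and 63 of 77 were between 0.2 and 0.6. Members higher by 0.5 or more numbered 14 of 77, a share near the 19.7% of all genes, and 1 member was lower by 0.5 or more, against 31.6% of all genes. None reached 1, where 7.55% of all genes were higher and 13.2% lower by that much. The members thus shared a direction and a narrow range, and their single changes were of ordinary size. Scaling moved the values: centred on the median gene 76 of 77 were above 0, rescaled to the same total 73 and with quantile scaling 57, with a median of 0.19.

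With ENZ the ribosomal protein genes were near their vehicle level and showed no common direction. In this experiment 45 of 77 members were above 0 and 32 below, against 47.7% of all 19250 genes higher by any amount. Their median was 0.03, against -0.02 for all genes, and 68 of 77 lay between -0.2 and 0.2. None passed 0.5 either way, while 14.4% of all genes were higher and 15.8% lower by that much, and none passed 1, where 3.67% were higher and 4.67% lower. The sign of this median depended on scaling. It was 0.052 when centred on the median gene and -0.082 when both libraries were rescaled to the same total, which left 17 of 77 members above 0.

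**Figure D1:**
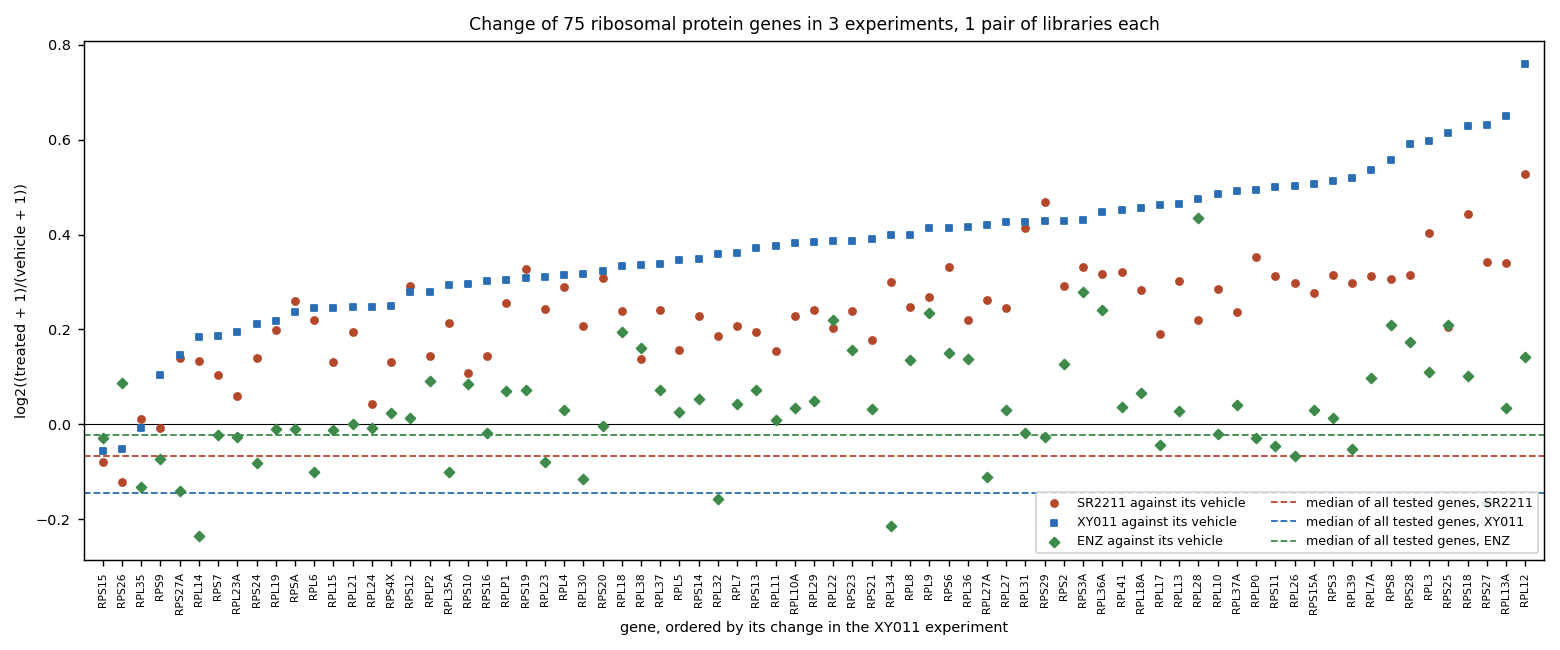
Log2 change of 75 of the 77 ribosomal protein genes against the vehicle of its own experiment (vertical axis), with genes ordered along the horizontal axis by their change with XY011; circles are SR2211, squares XY011 and diamonds ENZ, and dashed lines are the medians of all tested genes (-0.07, -0.14 and -0.02). Nearly all circles and squares lie above 0, and the diamonds scatter around 0.

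Summed over the 77 genes, the ribosomal protein mRNAs took up 18.1% of all listed RPKM with SR2211 and 15.3% with its vehicle, and 22.5% of all FPKM with XY011 and 17.4% with its vehicle. Of the 100 genes with the highest values, 55 were members with SR2211 and 53 with its vehicle, and 63 were members with XY011 and 57 with its vehicle. The members thus held a larger share in both treated libraries. In the ENZ experiment they held 5.47% with ENZ and 5.76% with vehicle, and were 21 of the 100 highest genes with ENZ and 20 with vehicle. That table also listed very high values for small RNA genes. With those left out of the sum the shares were 8.69% with ENZ and 8.62% with vehicle. Values per length weigh short genes up, so these shares are not shares of reads. All values are relative to their library, so more ribosomal protein mRNA per cell and less of the other mRNAs cannot be told apart.

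Other genes averaging 100 or more had a median of -0.15 with SR2211 (535 genes), -0.15 with XY011 (576 genes) and -0.04 with ENZ (1807 genes). They were not matched to the members in level. The median member stood at 703 RPKM in the SR2211 vehicle, 944 FPKM in the XY011 vehicle and 1322 FPKM in the ENZ vehicle. Across members the change and the log2 mean level had a Pearson r of 0.025 with SR2211, 0.39 with XY011 and -0.027 with ENZ. The part of level in the changes was not tested. The genes for proteins of the mitochondrial ribosome, a separate ribosome that translates the few mRNAs of the mitochondrial genome, lay mostly below 0. Their median was -0.38 with SR2211 (9 of 76 above 0), -0.57 with XY011 (10 of 77) and -0.18 with ENZ (17 of 76). The difference between these gene groups was not tested, since genes of 1 pair of libraries are not replicates.

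**Figure D2:**
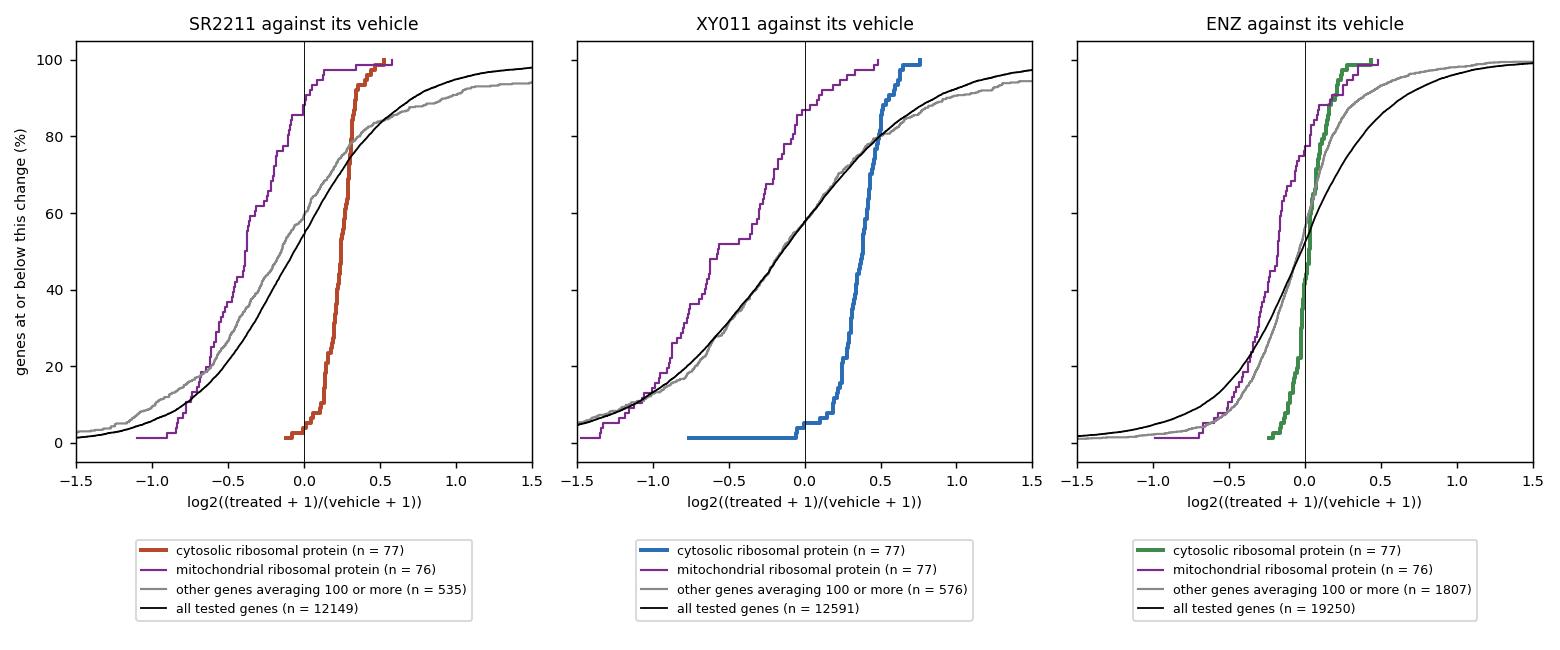
Percent of genes (vertical axis) at or below each log2 change (horizontal axis) in the 3 experiments, for cytosolic ribosomal protein genes (thick line), mitochondrial ribosomal protein genes, other genes averaging 100 or more and all tested genes. With SR2211 and XY011 the thick line is steep and to the right of 0 (medians 0.24 and 0.38) and the mitochondrial line lies to the left (medians -0.38 and -0.57), while with ENZ the thick line is centred close to 0 (median 0.03).

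Both subunits moved alike. The median of the 46 large subunit genes was 0.24 with SR2211, 0.39 with XY011 and 0.03 with ENZ, and that of the 31 small subunit genes was 0.27, 0.35 and 0.02. All 46 large subunit genes were above 0 with SR2211, and 45 were with XY011, where RPL35 was at -0.01. The 3 members below 0 with SR2211 were RPS9, RPS15 and RPS26, all of the small subunit. Across the 3 experiments 44 of 77 members were above 0 each time, and RPS15 was the only member below 0 each time. The same count over all genes was not worked out.

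The P stalk is a flexible arm of the large subunit, made of RPLP0, RPLP1, RPLP2 and, at its base, RPL12, that recruits the elongation factors. RPL12 had the largest increase of all members with both compounds. It stood at 1340.2 RPKM with SR2211 and 930.0 RPKM with vehicle, and the ratio of RPKM values was 1.44 with an exact 95% interval of 1.37 to 1.52. It stood at 2282 FPKM with XY011 and 1349 FPKM with vehicle, and at 687 FPKM with ENZ and 622 FPKM with vehicle. Its changes were 0.53, 0.76 and 0.14, and it was the only member that reached 0.5 with both SR2211 and XY011. Quantile scaling brought these changes to 0.29 with SR2211 and 0.33 with XY011. RPLP0, the protein on which the stalk is assembled, stood at 1700.1 RPKM with SR2211 and 1332 RPKM with vehicle, at 2041 FPKM with XY011 and 1449.8 FPKM with vehicle, and at 1677 FPKM with ENZ and 1712 FPKM with vehicle. RPLP1 and RPLP2, the acidic proteins that bind the factors, were higher by less, at 0.26 and 0.14 with SR2211, 0.30 and 0.28 with XY011, and 0.07 and 0.09 with ENZ. Thus all 4 stalk genes were above 0 with both compounds, and 3 of 4 were with ENZ.

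RPL5 and RPL11 join 5S ribosomal RNA in a particle that is built into the large subunit and that, when free, binds the ubiquitin ligase MDM2. The pair changed by almost the same amount in each experiment. RPL5 stood at 775 RPKM with SR2211 and 695 RPKM with vehicle, at 965 FPKM with XY011 and 759 FPKM with vehicle, and at 449 FPKM with ENZ and 441 FPKM with vehicle. RPL11 stood at 859.6 RPKM with SR2211 and 772 RPKM with vehicle, at 960.5 FPKM with XY011 and 740.2 FPKM with vehicle, and at 891 FPKM with ENZ and 885 FPKM with vehicle. Their changes were 0.16 and 0.15 with SR2211, 0.35 and 0.38 with XY011, and 0.03 and 0.01 with ENZ. Both lay below the median of all members with SR2211 (0.24), and close to or just below it with XY011 (0.38) and ENZ (0.03).

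Proteins at the catalytic core include RPL3, RPL8 and RPL10, which touch or border the peptidyl transferase centre. Of these RPL3 was among the 5 largest increases with SR2211, at 2071 RPKM with SR2211 and 1566 RPKM with vehicle (0.40), and stood at 2357 FPKM with XY011 and 1558 FPKM with vehicle (0.60). Quantile scaling brought these changes of RPL3 to 0.015 and 0.17. RPL8 was at 0.25 with SR2211, 0.40 with XY011 and 0.14 with ENZ, and RPL10, which is added late in the cytoplasm, at 0.29, 0.48 and -0.02. Along and around the tunnel through which the new protein leaves, 9 members were examined (RPL4, RPL17, RPL19, RPL22, RPL23A, RPL26, RPL31, RPL35 and RPL39), and their medians were 0.20 with SR2211, 0.39 with XY011 and -0.03 with ENZ. RPL31 and RPL35, which sit at the rim of that tunnel, differed within this group. RPL31 had the fourth largest increase with SR2211, at 248 RPKM with SR2211 and 186 RPKM with vehicle. RPL35 was near its vehicle level, at 1246 RPKM with SR2211 and 1235 RPKM with vehicle, and at 1399.7 FPKM with XY011 and 1406 FPKM with vehicle. The ratio of RPL35 values, SR2211 over vehicle, was 1.01 with an exact 95% interval of 0.969 to 1.05.

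In the small subunit 9 genes were examined for the head, which swings as mRNA and tRNA move, and several of the largest increases were among them. Members grouped here with other sites, such as RPS3, RPS15 and RPS28, were not counted among the 9. As a group the 9 did not stand out. The 9 head genes examined had medians of 0.29 with SR2211, 0.31 with XY011 and 0.01 with ENZ, where all members had 0.24, 0.38 and 0.03. RPS18 stood at 2038 RPKM with SR2211 and 1499 RPKM with vehicle (0.44), at 2945 FPKM with XY011 and 1906 FPKM with vehicle (0.63), and at 390.1 FPKM with ENZ and 364 FPKM with vehicle (0.10). RPS29, a small zinc-binding protein of the head, stood at 114 RPKM with SR2211 and 82.0 RPKM with vehicle (0.47) and at 363 FPKM with XY011 and 269 FPKM with vehicle (0.43). RPS25, needed for some internal ribosome entry sites, was at 0.21 with SR2211 and 0.61 with XY011, where it stood at 2080.4 FPKM with XY011 and 1359.5 FPKM with vehicle. These 3 genes were higher in both treated libraries, except that quantile scaling put RPS25 at -0.028 with SR2211 and 0.19 with XY011. The same scaling put RPS18 at 0.076 with SR2211 and 0.23 with XY011, and RPS29 at 0.61 and 0.40. RPS27 and RPL13A completed the 5 largest increases with XY011. RPS27 stood at 3765 FPKM with XY011 and 2432 FPKM with vehicle (0.63), against 2190.0 RPKM with SR2211 and 1729 RPKM with vehicle (0.34), and quantile scaling put it at 0.26 with XY011 and -0.026 with SR2211. RPL13A, which can leave the ribosome to act in the interferon-induced GAIT complex, stood at 1205 FPKM with XY011 and 768 FPKM with vehicle (0.65), against 599 RPKM with SR2211 and 473 RPKM with vehicle (0.34). A processed copy, RPL13AP5, stood at 1977 FPKM with XY011 and 1329 FPKM with vehicle, so reads of RPL13A may have been divided between both lines.

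RPS2 and RPS3, at the channel where mRNA enters, were at 0.29 and 0.31 with SR2211, 0.43 and 0.51 with XY011, and 0.13 and 0.01 with ENZ. At the channel where mRNA leaves, 3 of 4 genes were above 0 with both compounds and 1 was below. RPS14 was at 0.23 with SR2211, 0.35 with XY011 and 0.05 with ENZ, and RPS28 at 0.31, 0.59 and 0.17. RPS26, which contacts mRNA upstream of the start codon, stood at 264 RPKM with SR2211 and 287 RPKM with vehicle, at 1317 FPKM with XY011 and 1365 FPKM with vehicle, and at 65.8 FPKM with ENZ and 61.9 FPKM with vehicle. Its ratio of RPKM values, SR2211 over vehicle, was 0.919, with an exact 95% interval of 0.856 to 0.986.

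RPS15, whose tail reaches toward the decoding site, was the other member whose interval lay below 1. It stood at 1283 RPKM with SR2211 and 1355 RPKM with vehicle, at 1411 FPKM with XY011 and 1467 FPKM with vehicle, and at 1648 FPKM with ENZ and 1679.8 FPKM with vehicle, and its ratio of RPKM values, SR2211 over vehicle, was 0.947 (0.913 to 0.982). Its neighbour at that site, RPS23, was above 0 each time, at 0.24, 0.39 and 0.16. RPS9, an early-binding protein of the small subunit body, stood at 498 RPKM with SR2211 and 501 RPKM with vehicle, at 388 FPKM with XY011 and 361 FPKM with vehicle, and at 826 FPKM with ENZ and 869 FPKM with vehicle. So RPS9, RPS15, RPS26 and RPL35 were 4 of the 5 lowest changes with SR2211 and again 4 of the 5 lowest with XY011, in 2 pairs of libraries that share none. Over all 77 members the interval of the SR2211 ratio lay above 1 for 68, below 1 for 2 and held 1 for 7, among them RPL24, RPL35, RPS9, RPS10, RPS21 and RPS27A. Such intervals were not worked out for other genes, so the share of all genes with an interval off 1 is not known. The intervals of the members rest on the smallest read numbers that match the values. Some may therefore be too wide, and some that held 1 may not with the true reads. Centring on the median gene put RPS15 and RPS26 at 0.09 each with XY011, while in the SR2211 experiment they were at -0.01 and -0.06. Quantile scaling put RPS15 at -0.36 with SR2211 and -0.41 with XY011, RPS26 at -0.084 and -0.41, and RPL35 at -0.21 and -0.37.

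Genes that encode a ribosomal protein fused to ubiquitin or a ubiquitin-like protein gave small values. RPS27A, whose product is cut into ubiquitin and a small subunit protein, was at 0.14 with SR2211, 0.15 with XY011 and -0.14 with ENZ, below the median of the members each time. FAU, which gives a ubiquitin-like protein and RPS30 and lies outside the symbol rule, was at 0.09, -0.13 and -0.13. Another gene outside the rule, GNB2L1 (RACK1), a docking site for signalling proteins, was at 0.40, 0.47 and 0.08.

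With ENZ the members that stood farthest from 0 were others. RPL28 stood at 2409.9 FPKM with ENZ and 1782 FPKM with vehicle, a change of 0.43 and the largest of the set. RPS3A (0.28), RPL36A (0.24), RPL9 (0.23) and RPL22 (0.22) came next, and all 5 were also above 0 with SR2211 and XY011. The lowest were RPL14, at 1213 FPKM with ENZ and 1428 FPKM with vehicle (-0.23), and RPL34, at 574 FPKM with ENZ and 666 FPKM with vehicle (-0.21), followed by RPS27 (-0.17), RPL32 (-0.16) and RPS27A (-0.14). RPS27 was thus among the 5 largest increases with XY011 and among the 5 lowest with ENZ.

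The SR2211 and XY011 experiments can be set side by side, since dose and time were the same and no library was shared. In both, 72 of 77 members were above 0 and 2 below, and the change with XY011 was the larger for 71 of 77, with a median difference of 0.14. Of all tested genes 45.6% were higher with SR2211 and 42.2% with XY011. Across the 77 genes the changes had a Pearson r of 0.58 and a Spearman rho of 0.71, and r was 0.81 for the 75 members at 50 or more in all 4 libraries. Between SR2211 and ENZ r was 0.20 and between XY011 and ENZ 0.30. The points of such a correlation come from the same 4 libraries, so it describes these libraries. Neither the correlations nor the counts across experiments were worked out over all genes, so agreement particular to the members is not shown. ENZ gave the smallest of the 3 changes for 70 of 77 members and XY011 the largest for 69, but ENZ was used at another concentration and its table listed many more pseudogenes, so the 3 responses are given side by side and were not tested against each other.

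**Figure D3:**
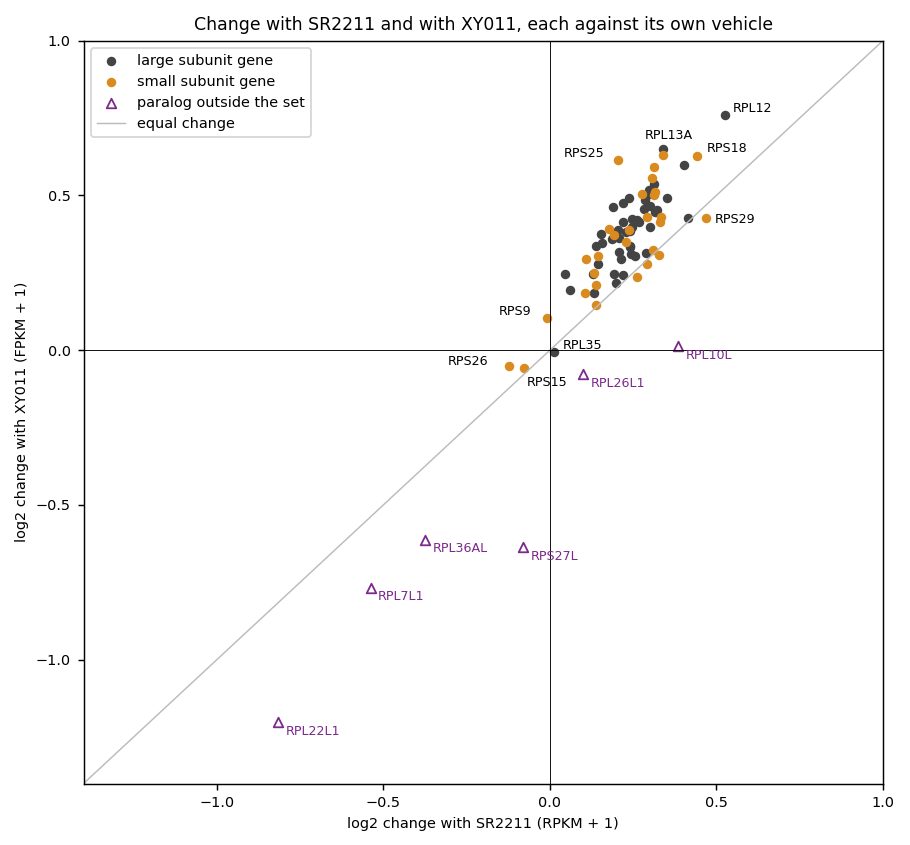
Log2 change with XY011 (vertical axis) against log2 change with SR2211 (horizontal axis), each against its own vehicle, for 46 large and 29 small subunit genes and for 6 paralogs outside the set (triangles). Most members lie above the diagonal of equal change, RPL12 is at the top right (0.53 and 0.76), RPS15, RPS26, RPL35 and RPS9 lie near the origin, and RPL22L1 is lowest of the triangles (-0.81 and -1.20).

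The paralogs of ribosomal proteins, close relatives that can replace the usual protein in some ribosomes, had lower changes than their canonical genes in most pairs. Of 6 pairs with a paralog at 1 or more in each experiment, the paralog's change was below that of its canonical gene in 5 with SR2211, 6 with XY011 and 5 with ENZ. By sign, 4 of the 6 paralogs were below 0 with SR2211, 5 with XY011 and 5 with ENZ. Of all tested genes 6611 of 12149 were below 0 with SR2211, 7264 of 12591 with XY011 and 10070 of 19250 with ENZ. The 6 paralogs are too few to be told from other genes by sign alone. The count of pairs was not worked out for other genes set against members. The members had a higher median than all tested genes in each experiment, so many other genes would also fall below a member. With ENZ the canonical genes RPL26 and RPS27 were below 0 too, at -0.07 and -0.17. RPL22L1 showed the widest gap with both compounds. It stood at 66.8 RPKM with SR2211 and 118 RPKM with vehicle (-0.81), at 41.0 FPKM with XY011 and 95.5 FPKM with vehicle (-1.20), and at 619 FPKM with ENZ and 827 FPKM with vehicle (-0.42). Its canonical partner RPL22, an RNA-binding protein known in mouse cells to repress RPL22L1, was at 0.20, 0.39 and 0.22. As a percentage of RPL22, RPL22L1 was at 54.3% with SR2211 and 111% with vehicle, at 33.9% with XY011 and 104% with vehicle, and at 270% with ENZ and 420% with vehicle. RPL7L1, which acts in ribosome assembly, was at -0.54, -0.77 and -0.24, where RPL7 was at 0.21, 0.36 and 0.04. RPL36AL was at -0.37, -0.61 and -0.26, where RPL36A was at 0.32, 0.45 and 0.24.

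RPS27L stood at 70.9 RPKM with SR2211 and 74.9 RPKM with vehicle (-0.08), at 38.1 FPKM with XY011 and 59.8 FPKM with vehicle (-0.64), and at 117 FPKM with ENZ and 150.5 FPKM with vehicle (-0.36). RPL26L1 was at 0.10, -0.08 and -0.62. RPL10L, a testis gene, stood at 4.68 RPKM with SR2211 and 3.35 RPKM with vehicle and was below 6 in all libraries, and RPL3L, a muscle gene, was below 1 wherever it was listed. RPL39L was analysed in the ENZ experiment alone, at 13.5 FPKM with ENZ and 8.42 FPKM with vehicle. RPL36A and RPL10 have near-identical relatives and many pseudogenes, so reads may have been divided between such genes.

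**Figure D4:**
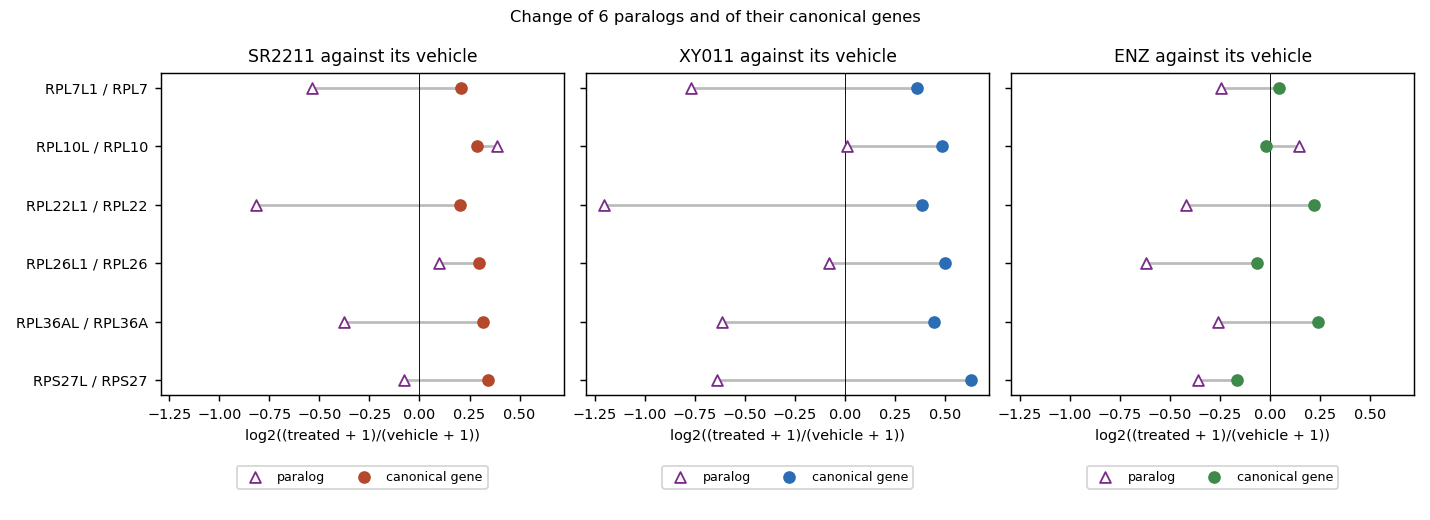
Log2 change (horizontal axis) of 6 paralogs (triangles) and of their canonical ribosomal protein genes (circles), with a grey line joining each pair, in the SR2211, XY011 and ENZ experiments. With XY011 every triangle lies left of its circle, the widest gap being RPL22L1 (-1.20) against RPL22 (0.39), and with SR2211 and with ENZ this holds for 5 of 6 pairs, the exception being RPL10L.

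Other mRNAs of the TOP class had medians near those of the ribosomal protein mRNAs. Of 20 such genes from a list of translation factors and related proteins, 15 were above 0 with SR2211 (median 0.26), 14 with XY011 (median 0.37) and 8 with ENZ (median -0.04). Of all tested genes 45.6%, 42.2% and 47.7% were higher. Among the 20, 2 reached 0.5 with SR2211, 7 with XY011 and 1 with ENZ, against 16.6%, 19.7% and 14.4% of all genes. Only EIF2S3 with ENZ (-0.51) was lower by 0.5 or more, against 15.8% of all genes. EEF2, the factor that moves the ribosome along the mRNA, stood at 2467 RPKM with SR2211 and 1529.5 RPKM with vehicle (0.69), at 1911 FPKM with XY011 and 975 FPKM with vehicle (0.97), and at 10576 FPKM with ENZ and 8915 FPKM with vehicle (0.25). EEF1A1, which brings tRNA to the ribosome, was at 0.42, 0.62 and 0.05. The initiation factor genes EIF3F, at 0.53, 0.75 and 0.56, and EIF4B, at 0.30, 0.75 and -0.33, were higher with both compounds too, while HNRNPA1, an RNA-binding protein, was at -0.30, -0.46 and -0.14 and NAP1L1, a histone chaperone, at -0.39, -0.32 and -0.06. Among the members, the 46 with a TOP start had medians of 0.24 with SR2211, 0.39 with XY011 and 0.03 with ENZ, and the 16 with an entry and no such start had 0.21, 0.34 and 0.01. This difference was not tested.

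Genes of the mTORC1 and LARP1 pathway, which acts on TOP mRNAs, changed in several directions. Of 16 examined, 8 were above 0 with SR2211, 8 with XY011 and 10 with ENZ, against 45.6%, 42.2% and 47.7% of all genes. LARP1 stood at 124 RPKM with SR2211 and 115 RPKM with vehicle (0.10), at 133 FPKM with XY011 and 110.3 FPKM with vehicle (0.27), and at 156 FPKM with ENZ and 130.1 FPKM with vehicle (0.26). Its relative LARP4, which binds poly(A) tails, was at -0.50, -0.23 and -0.93. With SR2211 and with XY011 the 2 largest changes were those of inhibitors of mTORC1 that respond to stress, DDIT4 and SESN2. With ENZ the change of DDIT4 was the largest and that of LARP4 the next in size. DDIT4 stood at 579.6 RPKM with SR2211 and 51.7 RPKM with vehicle (3.46), at 522 FPKM with XY011 and 34.1 FPKM with vehicle (3.90), and at 737 FPKM with ENZ and 310.5 FPKM with vehicle (1.24). SESN2 stood at 53.2 RPKM with SR2211 and 6.36 RPKM with vehicle (2.88), at 36.3 FPKM with XY011 and 5.13 FPKM with vehicle (2.60), and at 19.3 FPKM with ENZ and 10.7 FPKM with vehicle (0.80). Both were far higher with SR2211 and XY011 and less so with ENZ.

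Among the brakes and targets of that kinase, EIF4EBP1, which blocks cap-dependent initiation until it is phosphorylated, was at 0.58 with SR2211, 1.24 with XY011 and 0.37 with ENZ, and EIF4EBP2 at -0.09, -0.18 and 0.18. EIF4E, the cap-binding protein it holds back, was at -0.61, -0.78 and -0.53. RPS6KB2, a kinase of RPS6, was at -0.83, -1.32 and -0.50, and RPS6KB1, the better known kinase of RPS6, at -0.08, -0.21 and -0.63. The complex TSC1 and TSC2, which inhibits the mTORC1 activator RHEB, was at 0.63 and 0.38 with SR2211, 0.95 and 0.46 with XY011, and 0.13 and -0.16 with ENZ, and RHEB itself was at 0.12, 0.28 and 0.03. Among the genes of the kinase complex, MTOR was at -0.25, -0.0015 and 0.06, RPTOR at -0.16, -0.63 and -0.05, MLST8 at 0.43, 0.46 and 0.06, and its inhibitory subunit AKT1S1 at -0.74, -0.98 and 0.16. These are mRNA levels, and kinase activity and translation were not measured here.

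Levels differed much more between members than between treated and vehicle libraries. In the vehicle of the SR2211 experiment the highest were RPS2 (2970.0 RPKM), RPL41 (2891), RPS6 (1792), RPS27 (1729) and RPL26 (1576), and among the lowest were RPL36A (41.6), RPS29 (82.0), RPL22 (107) and RPS23 (134). In the vehicle of the XY011 experiment RPL41 (3926 FPKM), RPS2 (2966), RPS27 (2432), RPS6 (2323) and RPS24 (2263) were highest, and RPL22 (92.1), RPL27A (98.1), RPS23 (130.1) and RPL13 (148) among the lowest. RPL41, one of the smallest proteins known, and RPS6, the target of the S6 kinases, were thus high in both. In the ENZ vehicle the order was different. RPL8 (3890.0 FPKM), RPLP1 (3589), RPL38 (2783), RPL37A (2778) and RPL35A (2571) were highest, and RPS26 (61.9), RPL21 (181), RPL22 (197), RPL36A (206) and RPS27A (238) lowest.

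**Figure D5:**
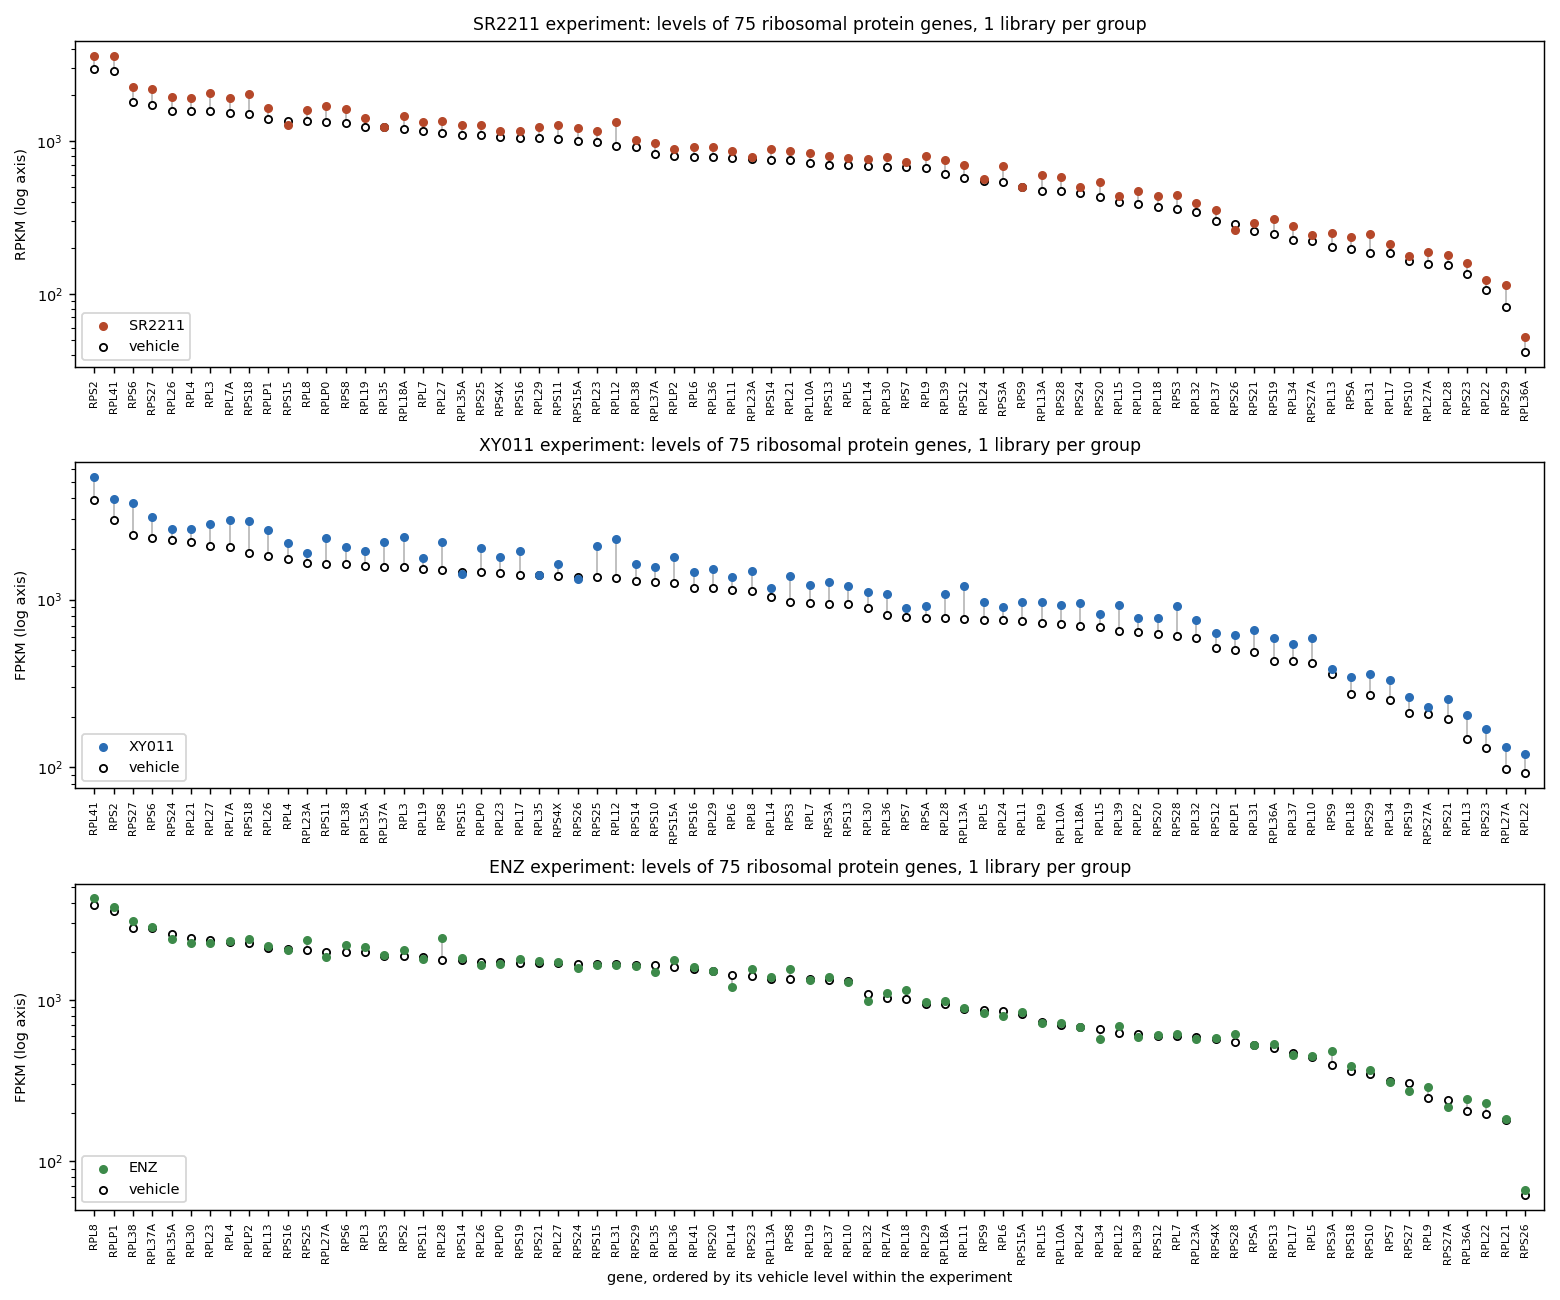
Level of 75 of the 77 ribosomal protein genes on a log axis, in RPKM (SR2211 experiment) or FPKM (XY011 and ENZ experiments), with filled points for the treated library and open points for its vehicle, ordered by vehicle level within each experiment. Filled points sit just above open ones for 72 genes with SR2211 and 72 with XY011 and on both sides with ENZ, and the gene order differs between experiments, with RPS26 lowest in the ENZ panel.

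The vehicle levels were close between the SR2211 and XY011 experiments and not between either and the ENZ experiment. On the log2 scale the correlation across members was 0.79 for SR2211 and XY011 vehicles, 0.27 for SR2211 and ENZ vehicles and 0.08 for XY011 and ENZ vehicles. Members that differed by 1 or more on that scale numbered 14, 39 and 34 of 77. RPS26 stood at 1365 FPKM in the XY011 vehicle and 61.9 FPKM in the ENZ vehicle. The ENZ table listed 373 lines for ribosomal protein pseudogenes, which summed to 56401 FPKM with ENZ and 54181 FPKM with vehicle, where 28 such lines stood in the SR2211 experiment and 21 in that with XY011. Members with more annotated pseudogenes had lower vehicle levels in the ENZ experiment (rho -0.53 across 77 genes, against -0.14 and 0.03 in the SR2211 and XY011 experiments). Levels are therefore compared within an experiment alone.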

How the data were processed

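Poly(A) RNA-seq values of 6 C4-2B libraries were used. The SR2211 pair was deposited as RPKM and the XY011 and ENZ pairs as FPKM, reads or fragments that the authors had divided by gene length and by the mapped total. GRCh37 (hg19) is the build and BWA, Bowtie, Cufflinks and Cuffdiff are the tools named, without their roles, per the submitters' processing notes. No source used here gives their versions, the annotation or any use of strand. Lines without a gene name (0 to 38 per table, at most 0.771% of a library's total) were left out, and lines of 1 symbol were summed. The extraction protocols name other compound codes for some pairs, so groups were taken from the titles.

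A change is log2((treated + 1)/(vehicle + 1)) within an experiment. Genes at 1 or more in either library were tested, without small RNA genes, and described by size rules of 0.5 and 1, with no p-value. Mapped reads of the SR2211 pair were found from microRNA genes of known length, which gave whole reads within 0.01 for 25 of 26 genes with SR2211 and 17 of 17 with vehicle. Reads of each member are the smallest whole numbers, within 0.003, that match both libraries at 1 length of 200 to 6000 bases, so true numbers can be a multiple and intervals too wide. Intervals of an RPKM ratio are exact binomial intervals of the reads, scaled by the mapped reads. Transcripts and pseudogenes came from GENCODE 29 and starts from RefSeq. The code was tested on simulated data (Python 3.11.15, pandas 2.3.3, SciPy 1.17.1). Pseudocount, scaling and filter were varied.

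Members and lists were chosen with earlier results of these data known. Genes named were the 5 largest and 5 lowest changes and the 5 highest and 5 lowest vehicle levels of each experiment, members at 0.5 or more with both SR2211 and XY011, the P stalk, 5S and mRNA exit members, the paralogs, the ribosome genes outside the rule and the TOP regulators. Members named by role beside these, and the examples of other TOP mRNAs, were chosen after their values were seen. Some genes that this rule names are counted but not reported one by one here, and the plots leave them out.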

Additional observations from a re-analysis of the deposited data

Results flagged for a closer look

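RPL34, a large subunit protein, changed by -0.21 with ENZ, at 574 FPKM with ENZ and 666 FPKM with vehicle, and by 0.30 with SR2211, at 277 RPKM with SR2211 and 224 RPKM with vehicle, and 0.40 with XY011, at 332 FPKM with XY011 and 252 FPKM with vehicle. It was picked out because its values lay on opposite sides of 0 in different experiments, by 0.2 or more on each side. The difference between the experiments was not tested. Centred on the median gene its change with ENZ was -0.19.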

How the results depend on the processing

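Centred on the median gene, the median change of the members was 0.31 with SR2211, 0.53 with XY011 and 0.052 with ENZ. Members higher by 0.5 or more then numbered 3 with SR2211 and 43 with XY011. With quantile scaling the medians were 0.084 with SR2211 and 0.19 with XY011, and 5 members were higher by 0.5 or more with XY011. With both libraries rescaled to the same total, that count was 9 with XY011, and the median with ENZ was -0.082. The share of the members with ENZ minus that with vehicle was -0.29 percentage points, 0.07 with small RNA genes left out and 0.22 with the 10 highest other genes left out. The correlation of the changes with SR2211 and XY011 was 0.814 for members at 50 or more in all 4 libraries. These alternatives change the scale of a whole library or leave out genes, and no further cause was tested. The other 100 values of medians, counts and shares moved little. Most of them were counts of 0 that stayed at 0, so they say little about stability. Of the values of named genes under the alternatives, 584 stayed on their side of the size rule of 0.5, 14 passed it and 13 no longer did, and none past it changed sign.

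No paired analysis was possible because each group has 1 library. For the same reason leaving out a library was not possible. A change of 1 gene cannot be told from the spread between cultures, and depth is known for the SR2211 experiment alone.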
